A study of Mus musculus with 4 samples.

Results

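Gata2, 1 of the 3624 genes in a deposited table of single-cell counts, was described across progenitor states of the mouse fetal liver and in both genotypes of the study. It was found by its gene symbol and not by a measured value, but earlier results of these data were known when it was chosen. The enhancer-deleted group was 2 embryos without -77, an enhancer named for its distance upstream of Gata2. The wild-type group was 2 embryos with that enhancer intact. All were C57Bl/6J at E14.5, and Lin-Sca1-Kit+CD34+ cells (positive for the receptor KIT and for CD34, without Sca1 or mature lineage markers) were sorted from fetal liver and processed on the 10x Genomics Chromium platform. The deletion is present in every cell of a deleted embryo and not in 1 lineage, and whether 1 or both alleles lacked the enhancer is not given in the sources used here.

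GATA2 is a zinc finger transcription factor that binds GATA motifs in DNA. It is required for hematopoietic stem and progenitor cells to form and persist, and mast cells and basophils keep expressing it. During red cell maturation the related factor GATA1 replaces GATA2 at shared sites, and Gata2 transcription is switched off. Remote enhancers, -77 among them, drive Gata2 in progenitors.

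Gata2 (ENSMUSG00000015053.14) lies on the plus strand of chromosome 6 at chr6:88193891-88207032 in GRCm38 and codes for a protein. RefSeq (GRCm38.p6) gives it 2 transcription starts 4.773 kb apart, and the 250 bases before each are shown because they are the sequences from which the counted transcripts are initiated. Capitals mark CCAAT motifs on either strand.
Gata2, upstream of the start at 88193891 (chr6:88193641-88193890): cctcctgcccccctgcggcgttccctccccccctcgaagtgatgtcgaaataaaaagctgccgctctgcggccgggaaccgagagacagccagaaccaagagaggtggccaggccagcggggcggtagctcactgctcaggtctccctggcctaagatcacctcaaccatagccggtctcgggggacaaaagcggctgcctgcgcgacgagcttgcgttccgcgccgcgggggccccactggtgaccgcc
Gata2, upstream of the start at 88198664 (chr6:88198414-88198663): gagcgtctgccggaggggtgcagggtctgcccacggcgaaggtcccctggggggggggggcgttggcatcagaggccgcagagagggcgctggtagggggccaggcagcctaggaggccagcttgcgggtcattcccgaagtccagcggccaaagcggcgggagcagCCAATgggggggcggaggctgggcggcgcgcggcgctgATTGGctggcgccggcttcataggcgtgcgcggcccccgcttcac
Neither window holds TATAAA or a GATA motif (AGATAA on either strand, also with T in its first place, G in its last place, or both). The second holds CCAAT at 83 and 45 bases before its start, and the first holds none. Of 32536 windows of this length in the RefSeq table, 26.5% hold a GATA motif, 33.8% hold CCAAT and 12.3% hold TATAAA. G and C make up 67.2% of the first window and 74% of the second. The counts are per gene and do not tell transcripts of the 2 starts apart, and the -77 enhancer itself was not analysed here.

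The libraries carry the deposited letters A and B for enhancer-deleted embryos and F and I for wild-type embryos, n = 2 per genotype. No letter is tied to a sample number, so p-values measure the spread between these libraries. In the fits of genes detected beside Gata2 and of differences between states, that spread was largely shared between genes. The deleted libraries held 2235 and 2745 cells, and the wild-type libraries 3042 and 1938. Median UMIs (unique molecular identifiers, 1 per captured transcript) per cell were 7492 and 7087 in the deleted libraries, against 12826.5 and 17437.5 in the wild type. Detection is therefore compared on a random 4000 UMIs of every cell, which left out 719 deleted and 112 wild-type cells that were shallower. Levels are CPM, meaning UMIs of a gene for every 1000000 UMIs that the library or state has over all 3624 genes. The gate genes were present, with Kit at 40.3 and 39.6 CPM in the deleted libraries and 41.8 and 45.2 CPM in the wild type. Without thinning, Kit was found in 25.2% and 24.0% of deleted cells, against 39.3% and 50.2% of wild-type cells. Cd34 had 306 and 333 CPM in the deleted libraries, against 186 and 210 CPM in the wild type. It was found in 67.6% to 83.4% of cells. Cells were placed in 17 clusters made without Gata2, and clusters were joined to states by marker lists.

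The states are described by their markers. HSPC-like cells (hematopoietic stem and progenitor cell, 3 clusters) had 9 of 10 measured stem and progenitor markers at least 2-fold above other cells. Erythroid-like, neutrophil-like and monocyte/macrophage-like clusters met their own lists. Clusters that met several lists or too few markers are called by leading genes, and those names were set after the markers were seen: Car1/Gata1-led (erythroid, megakaryocyte and mast cell markers together), Cpa3-led and Mcpt8-led (mast cell and basophil proteases), and Ebf1/Flt3-led (the B lymphoid marker Ebf1, with 5 stem and progenitor and 3 monocyte/macrophage markers). The 4 remaining clusters met no list and are joined as unlisted clusters, drawn as no-list.

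In the wild type, Gata2 was highest in Car1/Gata1-led cells. Library F had 173.0 CPM and library I 173.2 CPM there, from 585 and 326 UMIs. Those cells were 9.60% and 7.22% of the wild-type libraries and carried 55.4% and 41.5% of their Gata2 UMIs. The level was 4.91 and 5.42 times that of HSPC-like cells in the same 2 libraries, and 25.2 and 27.1 times that of neutrophil-like cells.

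Next in order came Cpa3-led cells, at 34.0 and 35.4 CPM, and HSPC-like cells, at 35.2 and 32.0 CPM, in wild-type libraries F and I. The 2 states did not differ beyond their spread, since the ratio of Cpa3-led to HSPC-like cells was 0.965 in library F and 1.11 in library I. Mcpt8-led cells had 13.5 and 15.1 CPM, below Cpa3-led cells in both libraries. The counting intervals of these 2 states did not overlap in library F (upper bound 22.2 against lower bound 27.5 CPM) and just met in library I (28.7 against 28.6 CPM).

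Unlisted clusters had 6.32 and 10.3 CPM, neutrophil-like cells 6.88 and 6.40 CPM, and monocyte/macrophage-like cells 1.83 and 4.63 CPM in wild-type libraries F and I. The ranges of the unlisted clusters and the neutrophil-like cells overlapped. Erythroid-like cells, which carry globin transcripts, had 5.31 CPM in library F, from 3 UMIs in 51 cells, and no Gata2 UMI in the 37 cells of library I. Ebf1/Flt3-led cells had 2.63 CPM in library F, from 1 UMI, and no UMI in library I.

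Enhancer-deleted libraries held a different range. HSPC-like cells had 15.2 CPM in library A and 13 CPM in library B. Below them, in libraries A and B, came Mcpt8-led cells at 7.12 and 4.69 CPM, unlisted clusters at 5.98 and 5.33 CPM, and monocyte/macrophage-like cells at 2.55 and 2.44 CPM. Car1/Gata1-led cells numbered 4 and 2 in libraries A and B, Cpa3-led cells 18 and 6, and erythroid-like cells 3 and 3, so their levels there are hardly measured. Of the states with at least 50 cells in every library, HSPC-like cells were the highest in all 4 libraries.

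**Figure D1:**
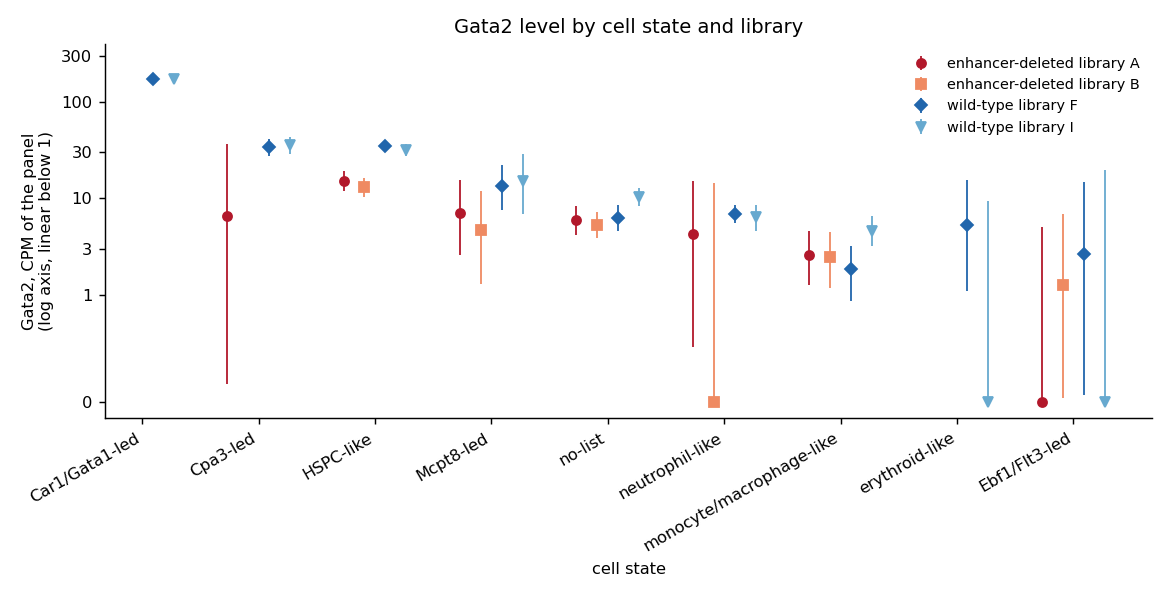
Gata2 level (CPM, log axis that is linear below 1) in each cell state, with 1 point per library and bars for the 95% exact Poisson interval of its UMIs, which covers counting error only. States of a library with fewer than 12 cells are not drawn; the wild-type libraries F and I stand at 173.0 and 173.2 CPM in Car1/Gata1-led cells, and in HSPC-like cells the deleted libraries A and B (15.2 and 13 CPM) lie below the wild-type ones (35.2 and 32.0 CPM).

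The share of cells with a Gata2 UMI at 4000 UMIs per cell was also highest in Car1/Gata1-led cells. In the wild type it was 42.9% (95% exact binomial interval 37.1% to 48.9%) in library F and 46.7% (38.0% to 55.4%) in library I. Cpa3-led cells of the wild type had 10.0% and 12.5%. Every interval covers counting error only.

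HSPC-like cells had a Gata2 UMI in 5.44% and 4.97% of cells in the deleted libraries A and B, against 14.9% and 10.3% in the wild-type libraries F and I. The genotypes did not overlap, with means of 5.21% ± 0.331 in deleted and 12.6% ± 3.26 in wild-type libraries (SD, n = 2 each). The exact two-sided permutation p was 0.333, which is the smallest that 2 libraries against 2 can give. Unthinned, the shares were 10.5% and 8.87% in deleted libraries, against 28.6% and 28.1% in the wild type. The means were 10.3% and 21.8% at 8000 UMIs, and 4.32% and 7.19% with states set by marker UMIs, in deleted and wild-type libraries.

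Free RNA in droplets can give a UMI in a cell that does not express the gene, so Ebf1/Flt3-led cells were taken as background. That they lack Gata2 is an assumption, since they also carry progenitor markers. Of them, 0 of 210 deleted cells had a Gata2 UMI, which allows a share of up to 1.43%, and 0 of 50 wild-type cells, which allows up to 6.0%. Their median depth was 6472 and 6115 UMIs in deleted libraries, against 10519 and 13581 in the wild type. Monocyte/macrophage-like cells had 1.13% and 1.34% in deleted libraries, against 0.484% and 1.52% in the wild type. These shares lie within the background limits of their genotypes (6.0% is a loose limit), so they are not told apart from background at this depth. Unthinned, 7.25% of these cells in wild-type library I had Gata2, with up to 5 UMIs in a cell, against 2.40% in library F. Whether they express the gene was not tested.

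The states between gave smaller differences at matched depth. Unlisted clusters had a Gata2 UMI in 2.26% and 2.21% of cells in the deleted libraries, against 3.45% and 4.28% in the wild type, without overlap (exact two-sided permutation p = 0.333, the smallest possible). Mcpt8-led cells had 3.37% and 1.01% in the deleted libraries, against 5.63% and 3.23% in the wild type, where the ranges overlapped (exact p = 0.667). Neutrophil-like cells had 3.51% and 0% of only 57 and 30 deleted cells, against 2.01% and 1.97% of 946 and 406 wild-type cells, and overlapped too (exact p = 1). The deleted shares of the unlisted clusters lie above the 1.43% that deleted background cells allow, in both libraries. Their exact binomial intervals start at 1.21% and 1.34%, so these shares are not told apart from that limit. In libraries A and B they ranged from 0.939% and 0.329% in the cluster led by Kpna2 to 4.39% and 8.33% in the shallow cluster led by Rpgrip1. The wild-type shares of all 3 states lie under 6.0%, a loose limit that rests on 50 cells.

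**Figure D2:**
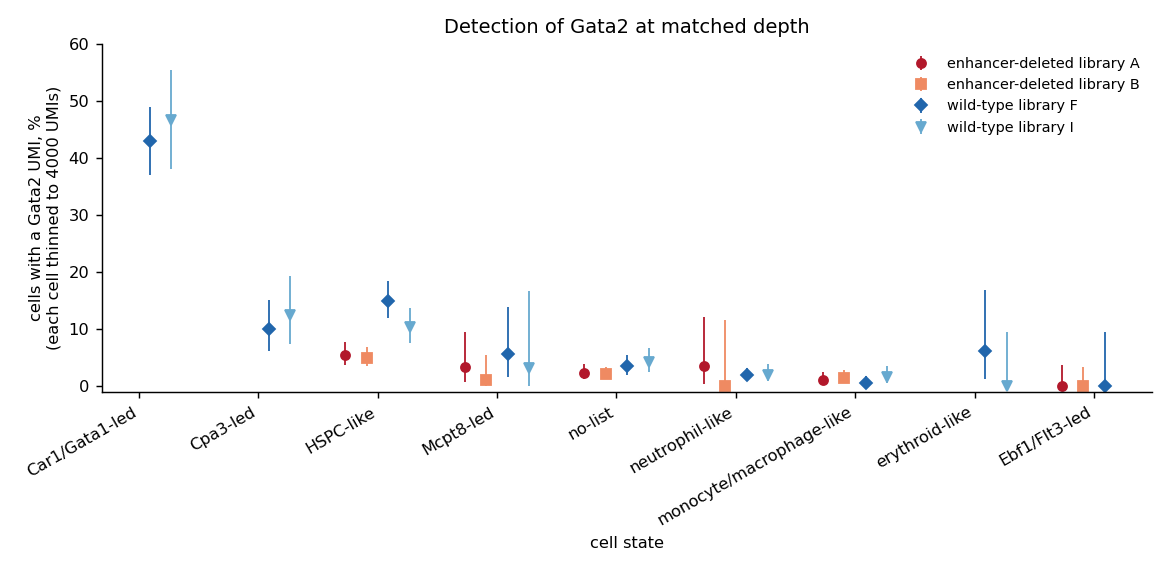
Share of cells with a Gata2 UMI (percent) in each state after thinning to 4000 UMIs per cell, with 1 point per library and bars for the 95% exact binomial interval, which covers counting error only. Libraries with fewer than 20 thinned cells of a state are not drawn; the wild-type libraries reach 42.9% and 46.7% in Car1/Gata1-led cells, and HSPC-like cells of the deleted libraries (5.44% and 4.97%) lie below those of the wild type (14.9% and 10.3%).

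Gata2 UMIs were unevenly spread among cells of several wild-type states. At 4000 UMIs per cell, 18 of 282 Car1/Gata1-led cells of library F and 11 of 135 of library I held 3 or more, and the variance of the UMIs was 1.52 and 1.62 times their mean. It was 1.30 and 1.52 times the mean in Cpa3-led cells and 1.35 and 2 times in Mcpt8-led cells, where 4 and 1 cells had Gata2. In HSPC-like cells 1 of 533 and 0 of 724 deleted cells held 3 or more, against 1 of 490 and 0 of 408 wild-type cells, and that ratio was 1.14 and 0.952 in the deleted libraries, and 1.12 and 1.14 in the wild type. Before thinning, the highest count in any cell was 3 and 2 in the deleted libraries, against 12 and 13 in the wild type.

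The 3 HSPC-like clusters each had less Gata2 in the deleted libraries, with no overlap between genotypes. The cluster with Slc22a3 and Hlf among its leading genes, whose cells were shallow (a median 0.577 of their library's), had 15.6 and 17.4 CPM in the deleted libraries, against 55.2 and 48.2 CPM in the wild type. The cluster led by Mycn and Gm5111 had 16.1 and 12.95 CPM in the deleted libraries, against 30.01 and 22.9 CPM in the wild type. The third, led by Gimap6, had 13.9 and 9.58 CPM in the deleted libraries, against 27.8 and 28.4 CPM in the wild type. The shallow cluster was thus the highest of the 3 in the wild type, and shallow depth moved with that level; its part in the result was not tested.

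Over all cells, Gata2 had 7.48 and 6.73 CPM in the deleted libraries, against 26.3 and 23.2 CPM in the wild type. The genotypes did not overlap, and the log2 fold change was -1.86 with a standard error (SE) of 0.19 (edgeR quasi-likelihood, Benjamini-Hochberg adjusted p = 0.00792). In this comparison 8.86% of the 3622 genes tested were called at an adjusted p of 0.05. A sum over all cells does not tell fewer cells of a state and fewer transcripts per cell apart. Without deleted library A the adjusted p was 0.0545.

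Within HSPC-like cells the log2 fold change of Gata2 was -1.31 with an SE of 0.17 (edgeR, adjusted p = 0.0279), and 0.897% of 3569 genes were called. In the same cells the summed level of the 5 measured basophil and mast cell markers was 48.3 and 47.3 CPM in the deleted libraries, against 101 and 115 CPM in the wild type, and its part in the Gata2 result was not tested. The call was lost without wild-type library F (adjusted p = 0.202), without library I (0.223) and without the shallow cluster (log2 -1.06, adjusted p = 0.150). With states set by marker UMIs in place of clusters it was -0.89 with an adjusted p of 0.151. The direction held in each of these.

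Monocyte/macrophage-like cells gave a log2 fold change of -0.32 with an SE of 0.57 (edgeR, adjusted p = 0.775), where 2.32% of 3571 genes were called. Without library I it turned to 0.48. Most monocyte/macrophage-like cells of the deleted libraries lay in the 2 clusters led by Trem2 and Nrp1, and 195 of the 331 of library I lay in the cluster led by C1galt1c1 and Ly6c2. In the unlisted clusters the log2 fold change was -0.60 with an SE of 0.30 (edgeR, adjusted p = 0.538). There edgeR called 0% of 3582 genes, with 354 at an unadjusted p under 0.05, and DESeq2 called 25.

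The difference of the genotype effect between states was tested directly, with the library as a factor. Monocyte/macrophage-like minus HSPC-like cells gave 0.98 on the log2 scale with an SE of 0.53 (edgeR, adjusted p = 0.185, with 23.8% of 3596 genes called). Unlisted clusters minus HSPC-like cells gave 0.71 with an SE of 0.30 (edgeR, adjusted p = 0.290, with 1.95% of 3593 genes called). Neither difference passed. Without library I both did, at 1.85 (adjusted p = 0.0127) and 1.19 (adjusted p = 0.0269).

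The mix of states differed between genotypes, so the level of each library was recomputed at a fixed mix. At the wild-type mix, Gata2 was 7.76 and 5.40 CPM in the deleted libraries and 24.3 and 25.0 CPM in the wild type, 3.75 times higher in the wild type. That value takes the deleted level of Car1/Gata1-led cells from 4 and 2 cells. At the enhancer-deleted mix it was 7.61 and 6.62 CPM in the deleted libraries and 14.1 and 15.2 CPM in the wild type, 2.06 times higher in the wild type. The libraries' own mixes gave 3.48 times.

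The genotypes did not overlap at any of the 3 mixes, and the exact two-sided permutation p was 0.333, the smallest possible, at each. With the 5 states that had at least 20 cells in every library, Gata2 averaged 5.58 ± 1.40 CPM in deleted and 11.9 ± 0.604 CPM in wild-type libraries at the wild-type mix. At the enhancer-deleted mix it averaged 7.36 ± 0.813 CPM in deleted and 14.9 ± 0.919 CPM in wild-type libraries (SD, n = 2 each). With Car1/Gata1-led cells left out and each library at its own mix, the wild type was 1.92 times higher.

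**Figure D3:**
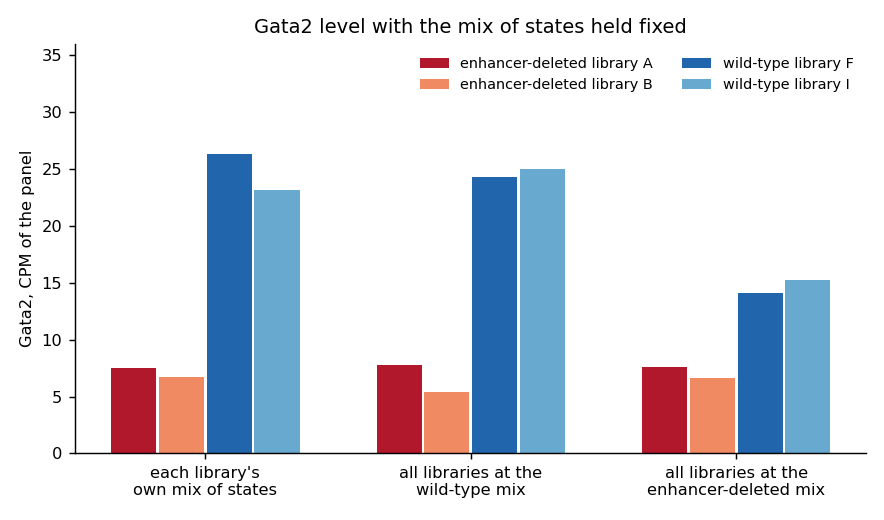
Gata2 level (CPM) of each library at its own mix of states, at the mean wild-type mix and at the mean enhancer-deleted mix; each bar is 1 library. The deleted libraries stay between 5.40 and 7.76 CPM at all 3 mixes, and the wild-type libraries drop to 14.1 and 15.2 CPM at the enhancer-deleted mix.

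Gata1, which encodes the factor that takes over from GATA2 in red cells, did not follow Gata2 in every wild-type state. Gata1 was 111 CPM (library F) and 123 CPM (library I) in Car1/Gata1-led cells, beside the highest Gata2. Erythroid-like cells had 158 and 136 CPM of Gata1, and Gata2 there was 5.31 and 0 CPM. Mcpt8-led cells had no Gata1 UMI in any library and 13.5 and 15.1 CPM of Gata2 in the wild type.

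Cell by cell, at 4000 UMIs, Gata2 was found in 33.6% and 41.3% of wild-type cells with a Gata1 UMI, against 7.50% and 6.68% of those without. Within Car1/Gata1-led cells the shares were 40.2% and 56.5% with Gata1, against 44.2% and 41.6% without. The order inside that state thus differed between libraries F and I. In erythroid-like cells 2 of 15 cells with Gata1 in library F also had Gata2, and 0 of 13 in library I.

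**Figure D4:**
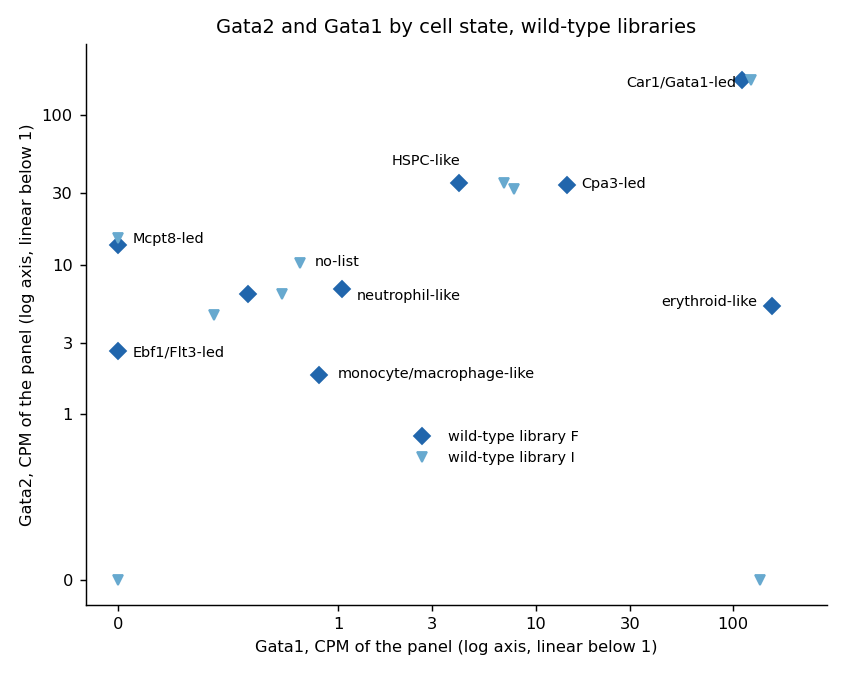
Gata2 against Gata1 (CPM of the panel, log axes that are linear below 1) in each state of the wild-type libraries; each point is 1 state of 1 library, and each state is named once. Car1/Gata1-led cells are high for both genes, erythroid-like cells are high for Gata1 (158 and 136 CPM) with Gata2 at 5.31 and 0 CPM, and Mcpt8-led cells have Gata2 with no Gata1 UMI.

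Genes whose wild-type level followed Gata2 most closely were ranked over the 15 clusters with at least 30 cells in both wild-type libraries, by Pearson's r of log2(CPM + 10). Among 3607 genes, those with the highest r included Muc13 (a mucin, r = 0.96), 4930519L02Rik (0.96), Spns2 (a sphingosine-1-phosphate transporter, 0.93), Ikzf2 (the transcription factor Helios, 0.93), Slc22a3 (an organic cation transporter, 0.92), Lat (a signalling adaptor, 0.91) and Cpa3 (mast cell carboxypeptidase, 0.89). Gata1 had r = 0.47, and 0.03 without the cluster highest in Gata2, while the others named here had 0.84 to 0.99 without it. Clusters share their libraries and depth, so r is a description. Muc13 had 52.6 and 59.0 CPM in Car1/Gata1-led cells, against 12.1 and 13.3 CPM in HSPC-like cells of libraries F and I.

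To find genes detected beside Gata2, cells with a Gata2 UMI at 4000 UMIs were summed in each library and set against cells without, with the library as a factor and Gata2 itself left out. Cells with Gata2 numbered 54 and 63 in the deleted libraries, against 258 and 154 in the wild type. The states differed between the sums. HSPC-like cells made up 53.7% and 57.1% of deleted cells with Gata2, against 28.3% and 27.3% of wild-type ones, and Car1/Gata1-led cells made up 46.9% and 40.9% of wild-type cells with Gata2. Their median depth before thinning was 8044, 6558, 11540.5 and 14532.5 UMIs in libraries A, B, F and I, against 8213, 7786, 13286.5 and 17776.5 in cells without Gata2; the part of depth and state in these results was not tested.

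Over all cells, 220 genes were higher in cells with Gata2 (6.08% of 3617 tested) and 280 were lower (7.74%) by edgeR at an adjusted p of 0.05. The direction was shared by all 4 libraries for 153 of the higher and 227 of the lower genes; of all genes tested, 458 were higher and 557 lower in all 4. Limma was run on the log2 differences of each library, with the spread of each gene moderated by that of all genes. By it 2 were higher and 3 lower (Sat1, Hp, Spns2, Fut8 and Ms4a6c, named because they are so few), with 621 at an unadjusted p under 0.05. The edgeR counts are calls on a spread shared largely between genes. Leaving out library F gave 75 higher and 104 lower, and leaving out library I gave 67 and 112.

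Summed over all cells, partners of GATA2 were mostly higher beside it. Of the 11 measured partner and co-occupying factors, 6 were higher and 1 lower by edgeR, against 6.08% and 7.74% of all genes. The median log2 difference of the 11 was 0.58, against 0.01 over all genes. Gfi1b, a transcriptional repressor needed for erythroid cells and megakaryocytes, had 23.1, 3.97, 42.6 and 35.7 CPM in cells with Gata2 of libraries A, B, F and I, against 5.40, 3.49, 8.07 and 8.65 CPM in cells without. It was higher in libraries A, F and I (log2 2.11 over all 4 libraries, SE 0.33, edgeR adjusted p = 0.000249). In B, with 63 cells with Gata2, the 2 levels hardly differed and set no direction. Zfpm1, which encodes the GATA cofactor FOG1, was higher in all 4 libraries (log2 2.07, edgeR adjusted p = 0.000302). Runx1 (0.76), Cbfa2t3 (0.73), Ldb1 (0.65) and Myb (0.58), a core of progenitor regulators, complete the 6.

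Spi1, which encodes the myeloid factor PU.1, was the partner that was lower beside Gata2. It had 352, 329, 220 and 229 CPM in cells with Gata2 of libraries A, B, F and I, against 390, 414, 384 and 360 CPM in cells without, lower in all 4 (log2 -0.52, SE 0.10, edgeR adjusted p = 0.0014). Lmo2, Lyl1, Fli1 and Cebpa did not pass, with log2 differences of 0.14, 0.11, 0.12 and 0.39.

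Among all genes 6.08% were higher and 7.74% lower, with a median log2 difference of 0.01. Of 11 measured genes described as activated by GATA2, 9 were higher and 0 lower by edgeR, with a median log2 difference of 1.19. The stem cell regulators Hlf (1.19) and Meis1 (0.98), the receptor gene Kit (0.67) and Hdc, which makes histamine (0.78), were among them. Gata1, Ms4a2 (a chain of the IgE receptor) and Samd14 (a regulator of KIT signalling) had log2 differences of 2.45, 4.67 and 2.3, but were higher in the 2 wild-type libraries alone, as the 54 and 63 deleted cells with Gata2 held no UMI of them. Cpa3 (2.29) was higher in 3 libraries. Ms4a2 had 58.1 and 35.7 CPM in cells with Gata2 of libraries F and I, against 1.58 and 1.42 CPM in cells without.

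Innate immune genes ran the other way. Of 11 measured, 0 were higher and 6 lower by edgeR, against 6.08% and 7.74% of all genes. The median log2 difference of the 11 was -0.83. Ly86, a partner of a Toll-like receptor family protein, had 18.5, 11.9, 2.91 and 9.74 CPM in cells with Gata2 of libraries A, B, F and I, against 62.1, 48.5, 44.6 and 41.1 CPM in cells without, lower in all 4 (log2 -2.57, SE 0.30, edgeR adjusted p = 1.76e-05). Irf8, a regulator of monocyte fate, was lower by 1.65 on the log2 scale.

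Lineage markers split in the same edgeR fit. All 5 measured megakaryocyte markers and all 5 basophil and mast cell markers were higher, as were 5 of 10 stem and progenitor markers. Of the others, 11 of 12 neutrophil and 10 of 14 monocyte/macrophage markers were lower. Among all genes 6.08% were higher and 7.74% lower. Of 17 erythroid markers 5 were higher (Klf1, Gata1, Gfi1b, Car1 and Nfe2), while Hba-a1, Hba-a2, Hbb-bs and Alas2 were among those that were lower. The higher ones include early regulators, and these lower ones are globin and heme synthesis genes. Among 18 ribosomal protein genes 9 were higher with a median of 0.09, and of 18 genes each for S phase and G2/M phase 2 and 1 were lower. The same markers named the states, and the states differ between the sums.

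By the naming rule, the genes with the largest edgeR differences in all 4 libraries were Rnase12 (log2 3.40), Gfi1b, Zfpm1, Smim5 (2.00), Muc13 (1.99), 4930519L02Rik (1.94), Lat (1.79), Ikzf2 (1.69), Slc22a3 (1.68), Ddah2 (1.48), Perp (1.43) and Nrgn (1.33). For Gfi1b the rule takes the small difference in library B as a direction. Muc13, 4930519L02Rik, Lat, Ikzf2 and Slc22a3 also stand among the genes closest to Gata2 over clusters. Ikzf2 was found in 25.9%, 9.52%, 36.4% and 44.8% of cells with Gata2 in libraries A, B, F and I, against 8.70%, 8.59%, 12.1% and 15.04% of cells without. The lowest were Camp (-4.14), Hbb-bs (-3.65), Pld4 (-3.22), Fcnb (-3.16), Ly6c2 (-2.85), Ly86, Ifitm6 (-2.56) and Mcemp1 (-2.53). Camp and Fcnb are neutrophil granule genes, Hbb-bs is a globin, and Ly6c2 marks classical monocytes.

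With the state held to HSPC-like cells, fewer genes stood beside Gata2. Cells with a Gata2 UMI numbered 29 of 533 and 36 of 724 in the deleted libraries, against 73 of 490 and 42 of 408 in the wild type. By edgeR 10 genes were higher (0.285% of 3510) and 4 were lower (0.114%), and 5 of the 10 and all 4 kept their direction in every library. This fit found no spread particular to a gene, and limma on the differences of each library called 0, with 232 at an unadjusted p under 0.05; DESeq2 called 1 higher and 0 lower. Without library F edgeR called 1 higher and 0 lower, and without library I 2 and 0.

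Apoe, an apolipoprotein, had the smallest edgeR p. It had 138, 90.3, 740 and 851 CPM in HSPC-like cells with Gata2 of libraries A, B, F and I, against 59.0, 42.9, 358 and 263 CPM in those without. It was higher beside Gata2 in all 4 libraries, and lower in both deleted libraries than in the wild type on either side (log2 1.32, SE 0.11, edgeR adjusted p = 1.22e-32, limma adjusted p = 0.73). In library B the share of cells with Apoe did not follow its level, at 13.9% with Gata2 against 14.53% without. Apoc1, its neighbour in the genome, was also called, with a log2 difference of 1.38, and was higher in 3 libraries. Apoe and Apoc1, like Rab38 and Ikzf2 below, are among the leading genes of the Cpa3-led cluster. The part of cells close to that state was not tested. In wild-type Car1/Gata1-led cells Apoe was found in 95.9% and 96.8% with Gata2, against 96.3% and 91.7% without. In Cpa3-led cells it was found in 95% and 88.2% with Gata2, against 84.4% and 84.9% without.

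Rab38, a small GTPase of lysosome-related organelles, was found in 20.7%, 19.4%, 17.8% and 26.2% of HSPC-like cells with Gata2 in libraries A, B, F and I, against 13.5%, 10.3%, 9.11% and 9.02% of those without (log2 1.16, SE 0.28, edgeR adjusted p = 0.0191). Fut8, a fucosyltransferase, was found in 48.3%, 30.6%, 30.1% and 33.3% with Gata2, against 21.4%, 19.3%, 21.8% and 24.0% without (log2 0.79). Both were higher in all 4 libraries. Ikzf2 (0.73) and Vamp8 (0.44), a protein of granule release, completed the 5 that were higher in level in every library.

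Notch1, a receptor that specifies T cells, was found in 6.90%, 8.33%, 4.11% and 2.38% of HSPC-like cells with Gata2 in libraries A, B, F and I, against 13.3%, 12.2%, 14.9% and 16.9% of those without. Notch1 was lower beside Gata2 in all 4 libraries (log2 -1.70, SE 0.43, edgeR adjusted p = 0.0191, limma adjusted p = 0.73). That rests on 2 of 29, 3 of 36, 3 of 73 and 1 of 42 cells with Gata2 in libraries A, B, F and I. In A and B the exact binomial intervals with Gata2 (0.846% to 22.8% and 1.75% to 22.5%) contain the shares without it. Lsp1 (-0.68), Hmga2, a fetal chromatin protein (-0.43), and H2afy, which encodes a histone variant (-0.27), were the others that were lower in level in all 4. For Lsp1 in library B the share of cells went the other way, at 47.2% with Gata2 against 42.2% without.

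**Figure D5:**
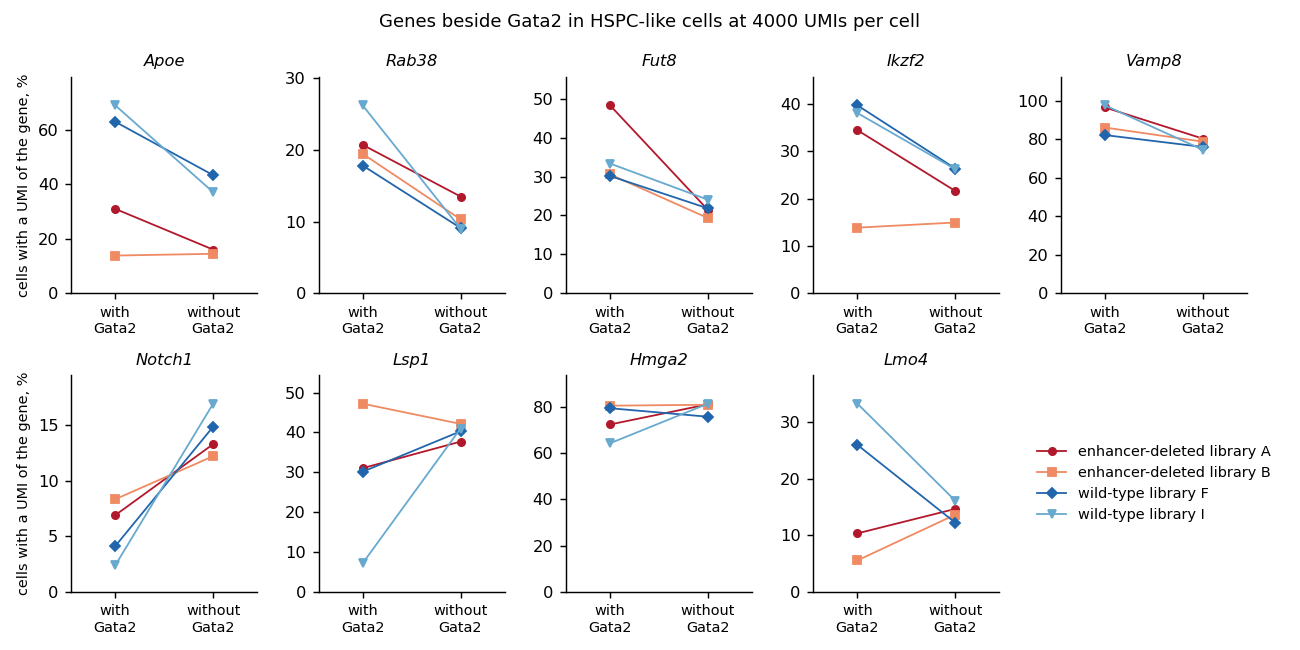
Share of HSPC-like cells with a UMI of each named gene (percent, at 4000 UMIs per cell), in cells with and without a Gata2 UMI; each line is 1 library. Rab38 and Fut8 are more frequent and Notch1 less frequent with Gata2 in all 4 libraries, while Lmo4 is more frequent with Gata2 in the wild-type libraries F (26.0% against 12.2%) and I (33.3% against 16.1%) and less frequent in the deleted libraries.

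Among all genes of the HSPC-like fit 0.285% were called higher and 0.114% lower. In HSPC-like cells edgeR called none of the measured GATA2 partners (11), GATA2-activated genes (9), innate immune genes (8), S phase genes (18), G2/M genes (18) or ribosomal protein genes (18). Their median log2 differences were 0.15, 0.55, -0.09, -0.04, -0.03 and 0.06, against 0.02 over all genes. Spi1 had 0.04, Myb 0.46, Gata1 1.75 (SE 0.89) and Cpa3 1.16 (SE 0.38), none past the threshold. Among markers Hmga2 was lower, Hbb-bt, a beta globin, was higher in 3 libraries, and Lmo4 was called higher in 2 libraries.

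Lmo4 encodes a transcription cofactor of the LIM-only family and is among the basophil and mast cell markers. It stood beside Gata2 in wild-type HSPC-like cells and not in deleted ones. In HSPC-like cells it was found in 3 of 29 and 2 of 36 deleted cells with Gata2 (10.3% and 5.56%), against 14.7% and 13.7% of deleted cells without. In the wild type it was found in 19 of 73 and 14 of 42 cells with Gata2 (26.0% and 33.3%), against 12.2% and 16.1% of cells without. The difference of the 2 log2 differences, deleted minus wild type, was -2.68 with an edgeR adjusted p of 0.00267, the only one of 3510 genes called (0.0285%, with 187 at an unadjusted p under 0.05). At 8000 UMIs per cell it was -1.79 with an adjusted p of 0.00743.

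Over all cells that difference was called for 62 genes (1.71% of 3617). Lmo4 had 74.1 and 31.7 CPM in deleted cells with Gata2 and 387 and 446 CPM in wild-type cells with it, against 50.4 and 43.2 CPM in deleted cells and 73.4 and 72.2 CPM in wild-type cells without it (log2 -2.35, edgeR adjusted p = 1.03e-15). Irf8 was found in 31.5% and 34.9% of deleted cells with Gata2 and 53.1% and 52.3% of those without. In the wild type it was found in 7.36% and 10.4% of cells with Gata2 and 29.7% and 29.5% of those without (log2 1.43, adjusted p = 8.06e-05). The states of cells with Gata2 differ between genotypes as given above. The p-values of this fit rest on a spread shared almost wholly between genes.

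Among wild-type Car1/Gata1-led cells, 121 of 282 in library F and 63 of 135 in library I had Gata2, and values are given with no test since deleted libraries held almost none. Ms4a2 was found in 25.6% and 17.5% of cells with Gata2 in libraries F and I, against 3.11% and 4.17% of cells without. Lmo4 was found in 66.1% and 69.8% with Gata2, against 42.2% and 47.2% without. Both genes were more frequent beside Gata2 in both libraries.

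Lmo2, part of the complex in which GATA factors act, was less frequent beside Gata2 in that state, at 35.5% and 39.7% with Gata2 against 55.3% and 56.9% without. Klf1, an erythroid regulator, was at 21.5% and 25.4% with Gata2 against 31.1% and 33.3% without. Car1, a carbonic anhydrase, was at 13.2% and 15.9% with Gata2 against 14.9% and 13.9% without, and so differed in order between libraries. Zfpm1, a partner higher over all cells, was at 20.7% and 20.6% with Gata2 against 26.1% and 25% without. Myb was at 53.7% and 61.9% against 55.3% and 63.9%. The partners Runx1 (34.7% and 46.0% against 28.6% and 29.2%) and Ldb1 (25.6% and 30.2% against 18.0% and 23.6%) were more frequent beside Gata2. The order of Gfi1b and Cbfa2t3 differed between libraries. In Cpa3-led cells Lmo4 was again more frequent beside Gata2, at 50% and 52.9% with Gata2 against 26.7% and 19.3% without.

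A finer clustering of 32 clusters split the Car1/Gata1-led cells. Most, 372 of 438, fell in a cluster led by Gm15915 and Car1, with 157 and 153 CPM of Gata2 in libraries F and I. Another 59 fell in a cluster led by Prg2, Prg3, Rnase12 and Ms4a2, of 43 and 23 wild-type cells and no deleted cell. That cluster had the highest Gata2 level in the wild-type libraries, at 305 CPM (95% exact Poisson interval 253 to 366) in library F and 232 CPM (183 to 290) in library I. Its share of cells with Gata2 was not always the higher. Without thinning it was 65.1% and 65.2% in libraries F and I, against 71.3% and 73.6% in the cluster led by Gm15915 and Car1. After thinning it was 61.5% against 40.2% in library F, and 39.1% against 45.8% in library I.

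Inside the Prg2-led cluster, Prg2, which encodes eosinophil major basic protein, and Gata2 were mostly in different cells. Prg2 was found in 1 of 24 cells with Gata2 and 10 of 15 without in library F, and in 0 of 9 with and 9 of 14 without in library I. Ms4a2 was found in 16 of 24 with and 2 of 15 without in library F, and in 5 of 9 with and 2 of 14 without in library I. The clusters were formed from 1000 variable genes other than Gata2, so these are descriptions of cells in 2 libraries.

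Among genes of the GATA2 lists, the genotype comparison in HSPC-like cells called few. Of 9 measured GATA2-activated genes 0 were higher (0.224% of all genes) and 2 lower (0.672%) in deleted libraries by edgeR, with a median log2 fold change of -0.36 against -0.01 over all genes. Cpa3 had 1.48 and 1.04 CPM in the deleted libraries, against 27.0 and 33.6 CPM in the wild type (log2 -4.64, SE 0.30, edgeR adjusted p = 0.00198). Hdc had 0.422 and 1.04 CPM in the deleted libraries, against 10.3 and 13.3 CPM in the wild type (log2 -3.98, SE 0.40, adjusted p = 0.0103). Neither gene overlapped between genotypes, and both belong to the basophil and mast cell markers whose summed level is given above.

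Of 11 measured partners, Myb, a regulator of progenitor growth, was the only one called (0.897% of all genes were called). It had 104 and 112 CPM in the deleted libraries, against 136 and 143 CPM in the wild type (log2 -0.43, SE 0.06, edgeR adjusted p = 0.0381). Runx1 had 86.6 and 86.5 CPM in the deleted libraries, against 107 and 105 CPM in the wild type, and missed the threshold (log2 -0.35, edgeR adjusted p = 0.0794). Gata1 had 0.422 and 1.04 CPM in deleted HSPC-like cells, against 4.09 and 7.79 CPM in the wild type (log2 -2.99, SE 0.55, adjusted p = 0.0717). None of 9 measured innate immune genes passed; Irf8 had 62.9 and 69.7 CPM in the deleted libraries, against 48.8 and 47.7 CPM in the wild type (log2 0.41, adjusted p = 0.0894).

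In the test over all cells 8.86% of 3622 genes were called, a share at which none among 7 is not unusual. The 7 measured genes within 500 kb of the Gata2 start on chromosome 6 did not pass that test. They are Gp9, Isy1, Cnbp, Rab7 and Rpn1 upstream, and Ruvbl1 and Sec61a1 downstream, with log2 fold changes between -0.47 (Gp9) and 0.16 (Ruvbl1). Rpn1, a subunit of oligosaccharyltransferase whose start lies 109 kb upstream, had 101 and 115 CPM in the deleted libraries, against 115 and 142 CPM in the wild type (log2 -0.30, SE 0.09, edgeR adjusted p = 0.130). Rab7, an endosome GTPase whose start lies 195 kb upstream, had 116 and 122 CPM in the deleted libraries, against 118 and 118 CPM in the wild type (log2 -0.04, SE 0.05, edgeR adjusted p = 0.644).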

How the data were processed

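Single-cell transcripts were counted in sorted fetal liver progenitors. Per the submitters' processing notes, Cell Ranger 2.0.2, Seurat 2.3.4 and mm10 were used. The authors deposited whole-number UMI counts of 3624 genes in 9960 cells, 4980 per genotype, with no normalization. How the genes and cells were chosen is not given in the sources used here. Without a header in the table, the order of cells in the deposited grouping list was used. Cell barcodes were not analysed here, and 0 cells had the same counts as another.

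From the counts, cells were scaled to 10000 UMIs, and Leiden clusters (resolution 1.0) were built on 15 neighbours in 30 principal components of 1000 variable genes, with Gata2 left out (Python 3.11.15 with scanpy 1.11.5 and python-igraph 0.11.9). A list could name a cluster if 3 or more markers were present in 10% of cells and reached 2-fold over the rest. No doublet caller was run. UMIs were summed per library and state and fitted with edgeR 4.0.16 (TMM, filterByExpr, quasi-likelihood, two-sided, R 4.3.3) where every library held 50 cells, and co-detection where a library held 20 cells with Gata2. The genotype and co-detection fits over all cells and in HSPC-like cells were also run on simulated counts. Those counts gave every gene the same spread, so they do not test the spread shared between genes. p-values were adjusted over all genes tested. Alternatives used DESeq2 1.42.0, limma 3.58.1, other scalings, depths, resolutions and left-out libraries. Positions come from GENCODE M21 (GRCm38), where 3522 of the symbols had a single gene.

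The named genes were Gata2, up to 3 members of each list with the smallest p, up to 12 higher and 8 lower in each co-detection fit in all 4 libraries and in 5% of cells of the higher side, and the 8 most similar over clusters. Some genes that the rule takes are not reported here. Others are named as list members or were chosen after their values were seen. The gene, lists and rules were chosen with earlier results of these data known.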

Additional observations from a re-analysis of the deposited data

Results flagged for a closer look

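The genotypes differed in co-detection with Gata2, by an interaction test, for 3 results among the genes named. Over all cells, the log2 difference of Lmo4 between cells with and without Gata2 was lower in the deleted libraries by an interaction of -2.35 (edgeR adjusted p = 1.03e-15). Irf8 had an interaction of 1.43 over all cells (edgeR adjusted p = 8.06e-05). In HSPC-like cells Lmo4 had an interaction of -2.68 (edgeR adjusted p = 0.00267), which rests on 3 and 2 deleted cells with both genes and 19 and 14 wild-type ones. The p-values of these interactions rest on a spread shared wholly or almost wholly between genes. Lmo4 is among the basophil and mast cell markers, and the part of cells with such markers in the HSPC-like result was not tested. The cells with Gata2 were 1.85% and 0% Car1/Gata1-led in the deleted libraries, against 46.9% and 40.9% in the wild type, and the part of this in the results over all cells was not tested.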

How the results depend on the processing

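Gata2 kept its direction over all cells and in HSPC-like cells under every alternative run. No paired analysis was possible because the letters of the libraries carry no sample number, so none pairs embryos across genotypes. Each genotype had a library with little or no Xist and a library with much (0 and 410 CPM in A and B, 0.0249 and 492 CPM in F and I), and a term for Xist gave -1.85 over all cells (adjusted p = 0.000397) and -1.31 in HSPC-like cells (adjusted p = 0.0237). Where 1 library was left out, log2 fold changes ranged between -1.98 and -1.73 over all cells (adjusted p = 0.0545 without A, log2 -1.98), and between -1.46 and -1.15 in HSPC-like cells, where the call was lost without F (-1.24) and without I (-1.39). It was also lost with states set by marker UMIs (-0.89) and, chosen after seeing the data, without clusters under 0.6 of the library's median depth (-1.06). In monocyte/macrophage-like cells the range was -0.79 to 0.48, reversed at 0.48 without I; after thinning and at resolution 2.0 Gata2 did not pass the filter there. Differences against HSPC-like cells ranged between 0.43 and 1.85 for monocyte/macrophage-like cells and between 0.37 and 1.19 for unlisted clusters.

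Counts of co-detected genes moved most. Over all cells, higher and lower genes numbered 117 and 138 by DESeq2, 391 and 465 at 8000 UMIs, 461 and 547 with no thinning, 2 and 3 by limma, and 342 higher with wild-type libraries only; leaving out 1 library gave 67 to 235 and 104 to 292 (75 and 104 without F, 67 and 112 without I). In HSPC-like cells they numbered 1 and 0 by DESeq2, 49 and 22 at 8000 UMIs, 45 and 27 with no thinning, 0 and 0 by limma, and 7 were lower with library totals; leaving out 1 library gave 1 to 8 and 0 to 5. With no replicate block (the library factor left out) they were 42 and 45 over all cells, and 0 and 0 in HSPC-like cells. The genotype difference of co-detection was called for 21 higher and 17 lower genes over all cells at 8000 UMIs, and for 1 and 2 in HSPC-like cells. Of 406 recomputed values of 29 named genes, 315 kept their side of the threshold and 91 lost the call in the same direction.

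Detection depends on depth. In HSPC-like cells it was 10.3% in deleted and 21.8% in wild-type libraries at 8000 UMIs, 9.67% and 28.3% with no thinning, and 4.32% and 7.19% with states by marker UMIs; at resolution 0.5 it was 4.51% in deleted libraries. Single libraries gave 4.97% to 5.44% in deleted and 10.3% to 14.9% in wild-type libraries. In wild-type Car1/Gata1-led cells it was 63.1% at 8000 UMIs, 71.2% with no thinning, 50.1% at resolution 0.5 and 42.9% to 46.7% in single libraries. In monocyte/macrophage-like cells of deleted libraries it was 1.44% at 8000 UMIs, 1.68% with no thinning, 1.04% as the expected share over all thinnings, 1.54% at resolution 0.5, 0.977% at resolution 2.0, 0.877% with states by marker UMIs and 1.13% to 1.34% in single libraries. In those of the wild type it was 4.83% with no thinning, 2.44% at resolution 0.5 and 0.484% to 1.52% in single libraries. The level at the wild-type mix was 5.40 to 7.76 CPM in single deleted libraries; at the enhancer-deleted mix the wild-type level was 18.6 CPM at resolution 0.5 and 21.5 CPM with states by marker UMIs. The cause of these shifts was not tested. States with under 50 cells in a library, Car1/Gata1-led and Cpa3-led cells among them, entered no fit of the genotype difference in level.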
